A study of Mus musculus and Homo sapiens with 4 samples.

Results

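The nuclear genes of the 5 oxidative phosphorylation complexes were examined in tumour cells depleted of Merm1, the methyltransferase also called Wbscr22 and now Bud23. The genes were chosen by symbol alone: a probe set belonged when its only platform symbol began with NDUFA, NDUFB, NDUFC, NDUFS or NDUFV and a digit, with UQCR, with COX and a digit from 4 to 8, or with ATP5, or was SDHA, SDHB, SDHC or SDHD. This gave 164 probe sets for 81 genes on the mouse array, out of 34945 probe sets with 1 symbol for 18193 genes, and 156 probe sets for 81 genes on the human array, out of 41091 for 19775. The symbols are nearly all those of subunits. The exceptions are Cox7a2l in both species and, on the human array, the inhibitory factor gene ATP5IF1, the pseudogenes ATP5MC2P1 and COX6A1P1, and 3 transcripts named after a neighbouring subunit gene, NDUFB2-AS1, NDUFV2-AS1 and NDUFV1-DT. The mouse symbols of complex V are older names, so that Atp5k is ATP5ME and Atp5g1 is ATP5MC1.

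There were 4 groups of 1 array each, compared within 2 lines. LM8, a mouse osteosarcoma line, and A375M, a human melanoma line, had each been infected with the retroviral vector pSIREN-RetroQ carrying either a control insert or a hairpin against the Merm1 of the same species, and stable lines were kept, so that control and knock-down cells both carry a vector. The labels do not say how many infected cells or clones gave rise to each stable line. Values are log2 RMA expression values, and each difference is the knock-down value minus the control value of the same line. With 1 array a group there is no replicate spread, no p-value and no standard error within a line, and precision is limited by there being 4 arrays in all.

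Oxidative phosphorylation couples the oxidation of NADH and succinate to ATP synthesis in the inner mitochondrial membrane. Complex I (NADH dehydrogenase) and complex II (succinate dehydrogenase) pass electrons through complex III (ubiquinol-cytochrome c reductase) to complex IV (cytochrome c oxidase), and complex V (ATP synthase) uses the proton gradient that complexes I, III and IV build. A few subunits of complex IV have isoforms made mainly in heart and skeletal muscle, lung or testis, while the ubiquitous isoforms serve most other cells.

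The target gene read 10.61 (LM8 control) and 8.48 (LM8 knock-down), and 10.70 and 8.38, on its brighter probe set, in the A375M arrays. Pearson's r between the arrays of a line, taken over probe sets and so over no independent replicates, was 0.996 (LM8) and 0.998 (A375M). In A375M 45.4% of probe sets, and 49 of the 156 examined here, were identical to the last digit in control and knock-down; in LM8 0.706%, and 0 of 164, were. Osteoblast markers lay above the array median for 10 of 10 genes found in LM8, and melanocyte markers for 10 of 11 in A375M. Other lists reached above the A375M median too: fibroblast and smooth muscle for 7 of 9, osteoblast for 7 of 12 and leukocyte for 3 of 6. The count alone thus does not set the melanocyte list apart there. In LM8 fibroblast and smooth muscle markers were above it for 7 of 9 and higher in the knock-down array for 8 of 9 (median difference 0.16), with Col3a1 from 6.59 to 8.96, and leukocyte markers were lower for 6 of 7 (median -0.13). In A375M these lists were higher for 3 of 9 (0 lower) and lower for 4 of 6, and their part in the results was not tested. Of all genes 53.4% were higher and 46% lower in LM8, and 28.7% and 31.9% in A375M. As a gauge of technical spread, the SD among bright probe sets (above the array median) of the same gene was taken. Its median over oxidative phosphorylation genes was 0.042 for LM8 and 0.032 for A375M. Over all genes it was larger, at 0.11 and 0.070. This gauge leaves out the spread between cultures.

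In LM8 the genes of the complexes differed little, and mostly upward. Of the 81 genes, each represented by its probe set with the highest mean, 56 were higher in the knock-down array, 25 lower and 0 identical, where 53.4% of all genes were higher, 46% lower and 0.561% identical. The median difference was 0.047, or 1.03-fold, against 0.016 over all genes and 0.019 over the 5761 genes above the 80th percentile of probe set level, where 70 of the 81 lay. Of these 70 brighter genes 50 were higher and 20 lower, against 56.1%, 43.9% and, for identical values, 0.0347% of all genes above that level. The quartiles of the 81 differences were -0.020 and 0.097. None of the 81 was at least 1.2-fold higher (10.2% of all genes were), and 4 were at least 1.2-fold lower (8.33% of all genes were). These 4 were Cox6a2, Ndufa4l2, Cox7a2l and Cox7a1. At 1.1-fold 12 were higher (24.4% of all genes) and 5 lower (19.9%), at 1.5-fold 0 higher (1.17%) and 1 lower (1.13%), and at 2-fold 0 higher (0.11%) and 0 lower (0.22%).

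In A375M the differences were smaller still. There 51 genes were higher, 15 lower and 15 identical, where 28.7% of all genes were higher, 31.9% lower and 39.4% identical. The median difference was 0.029, or 1.02-fold, against 0 over all genes and -0.0051 over the 6766 genes above the 80th percentile. Among those brighter genes 26.8% were higher, 51.3% lower and 21.8% identical, while of the 70 oxidative phosphorylation genes among them 47 were higher and 12 lower. Of the genes that were not identical, 77.3% of 66 were higher, against 47.4% of 11981 genes in all. These counts rest on 1 probe set a gene. Of 30 genes with several bright probe sets in A375M, 8 had all of them higher or all lower, with identical values counted as neither. In LM8 32 of 45 such genes did. One member, NDUFV1-DT, was at least 1.2-fold higher (3.77% of all genes were) and 2, COX7A1 and COX7B2, were at least 1.2-fold lower (3.78% of all genes were). At 1.1-fold 7 were higher (10.2% of all genes) and 3 lower (11.5%), at 1.5-fold 0 higher (0.364%) and 0 lower (0.283%), and at 2-fold 0 higher (0.0708%) and 0 lower (0.0303%).

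The direction in A375M depends on where zero is set. The array medians were 4.64 and 4.67. With each array centred on its own median 49.4% of the genes were higher and 50.6% lower, with a median of -0.0016. Of all genes 24.0% were then higher and 76.0% lower, with a median of -0.030. Repeated quantile normalization gave 75.3% higher and 24.7% lower, against 48.4% and 51.5% of all genes. Removal of a loess curve on level gave 80.2% and 19.8%, against 45.5% and 54.5%. In LM8 the share of higher genes stayed between 64.2% and 70.4% over the scaling, offset and probe set alternatives run. The share over all genes there stayed between 52.0% and 56.7%. Without probe sets whose names mark them as shared between transcripts, 29 of 69 A375M genes were higher, 12 lower and 28 identical, with a median of 0. Of all 17098 genes left 28.5% were higher and 28.8% lower.

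**Figure D1:**
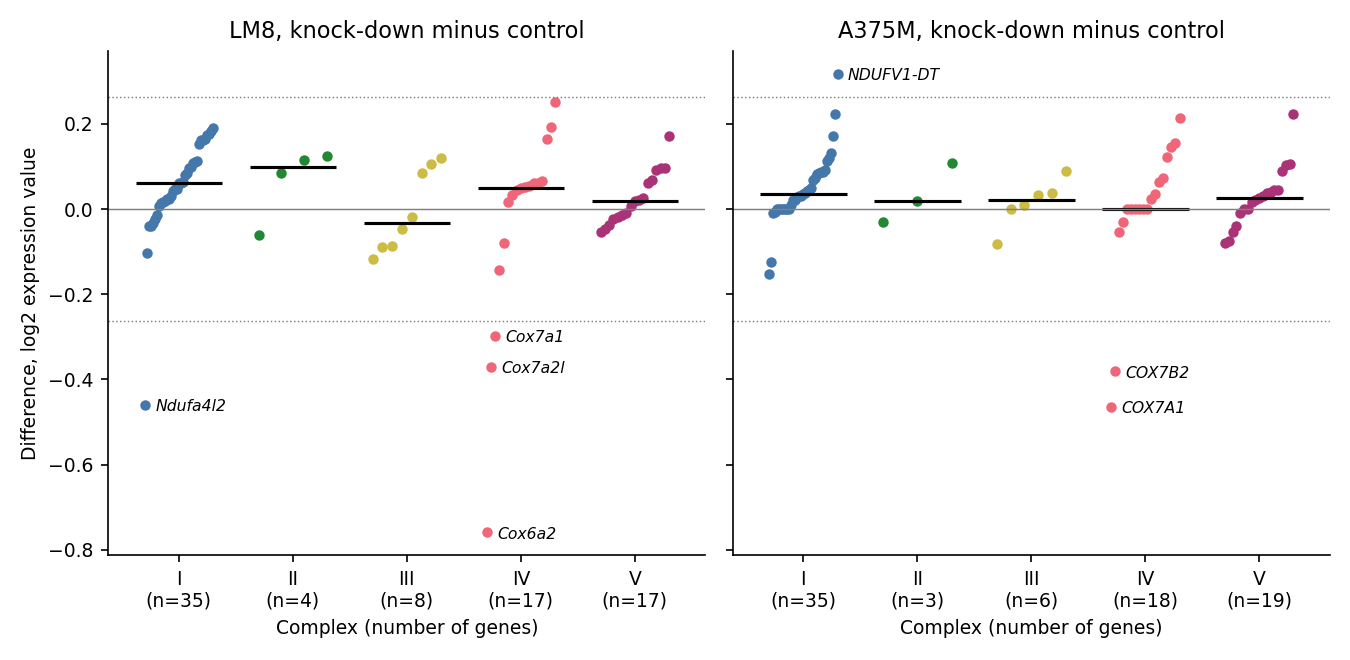
Difference of each oxidative phosphorylation gene (knock-down minus control, log2 expression value, 1 array each) by complex in LM8 and A375M. Each point is the main probe set of a gene, black bars are medians of a complex and dotted lines mark 1.2-fold; the genes beyond them are named. Most points lie within 1.2-fold (77 of 81 in LM8, 78 of 81 in A375M), and the low ones belong to complex IV except for Ndufa4l2.

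**Figure D2:**
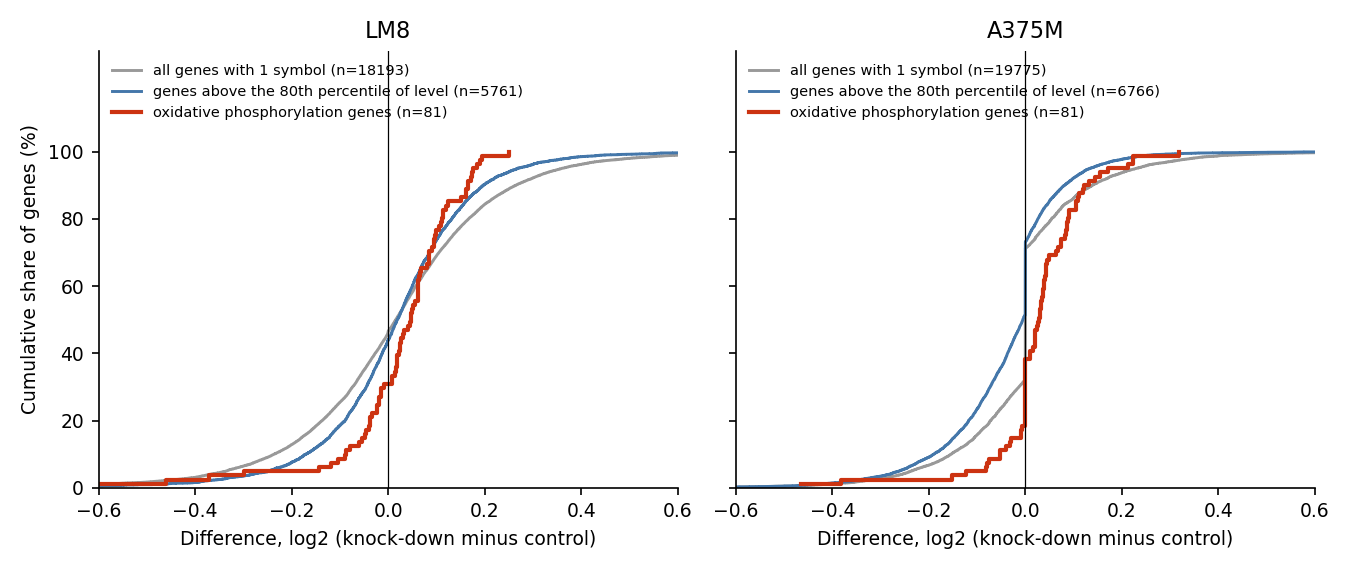
Cumulative share of genes (%) against the difference (log2, knock-down minus control) in LM8 and A375M, for oxidative phosphorylation genes, all genes with 1 symbol and genes above the 80th percentile of level. The step at 0 in A375M is made of genes with identical values, and the curve of the oxidative phosphorylation genes lies to the right of both others near 0 (medians 0.047 and 0.029). Differences beyond 0.6 are not drawn.

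Upstream sequence is shown for 4 mouse genes of complexes IV and V, since the subunit genes are known to share promoter elements. Subunit promoters are known for sites of nuclear respiratory factor 1 (Nrf1) and of ETS factors such as GABP, and the 250 bases upstream of the start in RefSeq's GRCm38.p6 were searched on both strands for GCGCA and GCGC with any 1 base between them (Nrf1), CCGGAAG (ETS) and ACGTG (the core of the hypoxia response element). Cox6a1 (chr5:115348959-115349208, minus strand) and Atp5k (chr5:108434400-108434649, minus strand) were higher in the LM8 knock-down array on all bright probe sets. Cox7a1 (chr7:30183921-30184170, plus strand) and Cox7a2l (chr17:83514334-83514583, minus strand) were at least 1.2-fold lower. All are written 5′ to 3′ in the direction of the gene, with matches in capitals.
Cox6a1: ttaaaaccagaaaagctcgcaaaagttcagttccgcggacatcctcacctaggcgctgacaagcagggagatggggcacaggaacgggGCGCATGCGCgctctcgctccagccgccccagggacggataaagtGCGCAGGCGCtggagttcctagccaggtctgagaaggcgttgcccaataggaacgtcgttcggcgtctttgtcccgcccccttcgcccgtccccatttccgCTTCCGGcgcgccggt
Atp5k: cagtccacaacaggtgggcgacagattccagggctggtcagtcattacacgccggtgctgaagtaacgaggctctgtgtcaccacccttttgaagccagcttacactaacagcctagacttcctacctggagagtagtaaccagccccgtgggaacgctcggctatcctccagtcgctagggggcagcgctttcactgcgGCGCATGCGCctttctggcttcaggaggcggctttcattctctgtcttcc
Cox7a1: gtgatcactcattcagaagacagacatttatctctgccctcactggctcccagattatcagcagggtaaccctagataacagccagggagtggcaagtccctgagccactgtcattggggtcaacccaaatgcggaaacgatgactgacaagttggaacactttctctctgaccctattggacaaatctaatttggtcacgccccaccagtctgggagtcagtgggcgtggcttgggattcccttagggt
Cox7a2l: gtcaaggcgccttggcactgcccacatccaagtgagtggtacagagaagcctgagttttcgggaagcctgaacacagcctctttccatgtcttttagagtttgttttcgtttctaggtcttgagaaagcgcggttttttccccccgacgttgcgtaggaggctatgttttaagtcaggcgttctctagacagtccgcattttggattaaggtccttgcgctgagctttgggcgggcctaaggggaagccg
Cox6a1 held 2 matches to the Nrf1 letters, at -162 to -153 and -117 to -108 from the start, and 1 to the ETS letters at -16 to -10, and Atp5k held 1 to the Nrf1 letters at -50 to -41. No match was found in these windows of Cox7a1 and Cox7a2l. No rule set in advance picked these 4 genes, so they cannot show whether the letters go with a direction. Of the 81 mouse genes 66 matched a promoter in the RefSeq table. Cox6a2 and Ndufa4l2, the lowest genes in LM8, and Cox4i2 were among those without a match, so the comparisons below leave them out. The Nrf1 letters were in 11 of the 66, or 16.7% against 4.23% of all 27025 genes, and the ETS letters in 12, or 18.2% against 7.83%. The hypoxia core was in 22.7% against 18.5%. The letters TATAAA of the TATA box, which are not marked in the sequences, were in 7 genes, or 10.6% against 14.3%. In LM8 the median difference of genes with and without the letters was 0.096 and 0.053 for Nrf1, 0.064 and 0.050 for ETS, 0.061 and 0.053 for the hypoxia core and 0.080 and 0.047 for TATAAA. Genes with the letters were thus slightly higher by median for every motif searched, TATAAA included. By count, 9 of 11 genes with the Nrf1 letters were higher and 40 of 55 without, and for ETS 10 of 12 and 39 of 54. For the hypoxia core 11 of 15 and 38 of 51 were higher, and for TATAAA 6 of 7 and 43 of 59. The lower genes with the Nrf1 letters were Sdhd (-0.061), which also held the ETS letters, and Atp5g2 (-0.038). These are matches of letters and not binding sites, a window without a match says only that the letters are not in it, and no test was made.

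Complex I held the largest share of higher genes in LM8. There 28 of 35 genes were higher and 7 lower, with a median of 0.061, where 53.4% of all genes were higher. In A375M 24 of 35 were higher, 4 lower and 7 identical, with a median of 0.036, where 28.7% of all genes were higher. The core subunits, among them those that carry the flavin and the iron-sulphur clusters, differed by a median of 0.021 (LM8, 6 genes) and 0.030 (A375M, 5 genes). The accessory subunits, which surround the core and are needed for its assembly and stability, differed by a median of 0.064 (LM8, 27 genes) and 0.036 (A375M, 27 genes).

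Ndufv3, an accessory subunit of the NADH-oxidising arm, read 11.93 and 12.12 in the LM8 control and knock-down arrays, the highest difference of complex I in LM8 at 0.19. NDUFV3 read 10.28 and 10.32 in A375M, a difference of 0.036, and its other bright probe set there differed by -0.0059. Ndufb9, an accessory subunit of the membrane arm, was higher by 0.18 and by 0.16 on its 2 bright probe sets in LM8, and NDUFB9 by 0.087 in A375M. On their main probe sets both genes were thus higher in the knock-down arrays of both lines, and for NDUFV3 the bright probe sets disagreed in A375M.

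Ndufa7, another accessory subunit, had 5 bright probe sets in LM8, all higher, by 0.13 to 0.24. NDUFA7 read 10.29 in both A375M arrays. Both probe sets of Ndufa5, a further accessory subunit, were higher in LM8, by 0.16 and 0.18, and NDUFA5 by 0.091 in A375M. NDUFS1, the largest core subunit, read 9.99 and 9.84 in A375M, and its bright probe sets differed by -0.21 to -0.061. It was the lowest gene of complex I there, and Ndufs1 differed by -0.039 in LM8. The highest symbol of complex I in A375M was NDUFV1-DT, a divergent transcript of the NDUFV1 locus and no subunit, which read 6.54 and 6.86, a difference of 0.32. NDUFV1 itself differed by 0.042.

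The symbols Ndufa4 and Ndufa4l2 are counted here with complex I by name, although the NDUFA4 protein is now assigned to complex IV. NDUFA4L2 is known as a hypoxia-inducible paralogue of NDUFA4. In LM8 Ndufa4 read 12.95 (control) and 13.03 (knock-down), while Ndufa4l2 read 6.85 and 6.39, a difference of -0.46 or 1.38-fold lower on its only probe set. With 32 added to the linear values the difference of Ndufa4l2 was -0.35. No human probe set named either gene alone.

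Complex II is the smallest complex and also a part of the tricarboxylic acid cycle. In LM8 the catalytic subunits Sdha, the flavoprotein, and Sdhb, the iron-sulphur protein, were higher by 0.11 and 0.12, from 11.24 to 11.36 and from 12.10 to 12.23. Another bright Sdha probe set was higher by 0.20, while a pair below the array median differed by -0.36 and -0.21, and the mean over all Sdha probe sets was -0.062. Of the membrane anchors Sdhc differed by 0.085 and Sdhd by -0.061. In A375M SDHA differed by 0.020, SDHC by -0.031 and SDHD by 0.11, the last from 10.98 to 11.09. The 7 SDHC probe sets, 6 of them bright, included 3 with identical values, so this gene gave no clear direction.

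Complex III had a median of -0.033 in LM8, with 3 of 8 genes higher and 5 lower, the only complex below 0 except when the probe sets of a gene were averaged, which put complex II at -0.015 and complex III at -0.017. Its 3 core genes all were lower, namely Uqcrc1 by -0.048, Uqcrc2 by -0.086 and Uqcrfs1, which encodes the Rieske iron-sulphur protein, by -0.089. Both bright Uqcrc2 probe sets were lower, from 11.99 to 11.90 and from 11.53 to 11.43. The lowest gene was the accessory subunit Uqcrq, which read 12.79 and 12.67, a difference of -0.12. The highest was the ubiquinone-binding Uqcrb, which read 14.12 and 14.24, a difference of 0.12. In A375M 4 of 6 genes were higher, 1 lower and 1 identical, with a median of 0.021 that centring of the arrays turned to -0.0087. The core gene UQCRC1 was the lowest there, at 11.01 and 10.92, a difference of -0.081, and UQCR10 the highest, from 11.22 to 11.31. Of all genes 53.4% were higher and 46% lower in LM8, and 28.7% and 31.9% in A375M.

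Complex IV held the largest differences, and in LM8 these were in isoform genes and in Cox7a2l. All 9 ubiquitous subunit genes found in LM8 were higher, by 0.017 for Cox4i1 to 0.25 for Cox7c, with a median of 0.053. In A375M 8 of 10 were higher, 1 lower and 1 identical, with a median of 0.069. The shares of higher genes among all genes were 53.4% (LM8) and 28.7% (A375M). The Cox7c value in LM8 comes from a probe set at 6.34 and 6.60, and the other differed by -0.13 at a level below the array median. COX7C, a small membrane subunit, was higher on all 3 bright probe sets in A375M, by 0.074 to 0.16. COX7A2, the ubiquitous isoform of subunit VIIa, read 12.28 and 12.49 in A375M, a difference of 0.21 and the highest of the complex there, while Cox7a2 read 13.44 and 13.50 in LM8. COX6B1, which lies at the contact between the monomers of the enzyme, was higher by 0.15 in A375M and by 0.045 in LM8.

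Tissue-restricted isoforms included the lowest genes of both lines. Of 8 such genes in LM8 (Ndufa4l2, a hypoxia-inducible paralogue, included) 5 were lower and 3 higher, with a median of -0.11, where 46% of all genes were lower. Without Ndufa4l2 4 of 7 were lower and 3 higher, with a median of -0.079. Of 6 in A375M 3 were lower, 3 identical and 0 higher, where 31.9% and 39.4% of all genes were lower and identical, and 3 of the 6 lay below the array median. Cox6a2, the heart and skeletal muscle isoform of subunit VIa, read 8.94 (control) and 8.18 (knock-down) in LM8, and its dimmer probe set 7.21 and 6.28. The differences were -0.76 and -0.94, or 1.69-fold and 1.91-fold lower, the largest of all oxidative phosphorylation genes. Its ubiquitous counterpart Cox6a1 read 14.41 and 14.46, and 13.18 and 13.33. In A375M COX6A2 lay below the array median at 4.08 and 4.03, and COX6A1 read 12.56 in both arrays.

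Cox7a1, the muscle isoform of subunit VIIa, read 7.08 and 6.78 in LM8, a difference of -0.30. COX7A1 read 3.46 and 2.99 in A375M, a difference of -0.46 at a level below the array median of 4.66, where 32 added to the linear values left -0.11, and the same offset left -0.24 for Cox7a1 in LM8, both under 1.2-fold. Of the muscle markers 2 of 10 in LM8 lay above the array median, the list spanned 3.04 to 6.01 in the control and 3.34 to 6.20 in the knock-down array, and its median difference was 0.080. In A375M 1 of 9 lay above the median, the list spanned 2.16 to 5.30 and 2.10 to 5.42, and its median difference was 0; their part in these differences was not tested. Cox4i2, the hypoxia-responsive isoform of subunit IV that is made mainly in lung, read 6.63 and 6.49 in LM8, a difference of -0.14, and COX4I2 4.80 in both A375M arrays. Their ubiquitous counterparts differed by 0.017 (Cox4i1) and 0.036 (COX4I1).

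Cox8b, the muscle isoform of subunit VIII, read 5.08 and 5.27 in LM8, below the array median, and so did not share the direction of Cox6a2 and Cox7a1.

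Testis isoforms had no common direction. Cox7b2 read 8.44 and 8.61 in LM8, a difference of 0.16, whereas COX7B2 read 8.09 and 7.71 in A375M, a difference of -0.38 or 1.30-fold lower. Each rests on a single probe set. COX7B, the ubiquitous isoform, differed by 0.064 on its bright probe set in A375M. Cox6b2 and Cox8c differed by -0.079 and 0.066 in LM8, and COX6B2 and COX8C were identical in the A375M arrays. The ubiquitous subunit VIII gene was higher by 0.055 (Cox8a, from 12.93 to 12.98) and 0.12 (COX8A, from 12.37 to 12.49).

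Cox7a2l encodes a protein related to subunit VIIa that links complex III and complex IV into a supercomplex. All 3 of its probe sets were lower in LM8, from 11.74 to 11.37, from 11.46 to 11.09 and from 11.22 to 10.75, so that the differences ran from -0.47 to -0.37. This spread is small beside the differences themselves. COX7A2L read 11.94 in both A375M arrays, with a difference of 0.0002 on its only probe set.

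**Figure D3:**
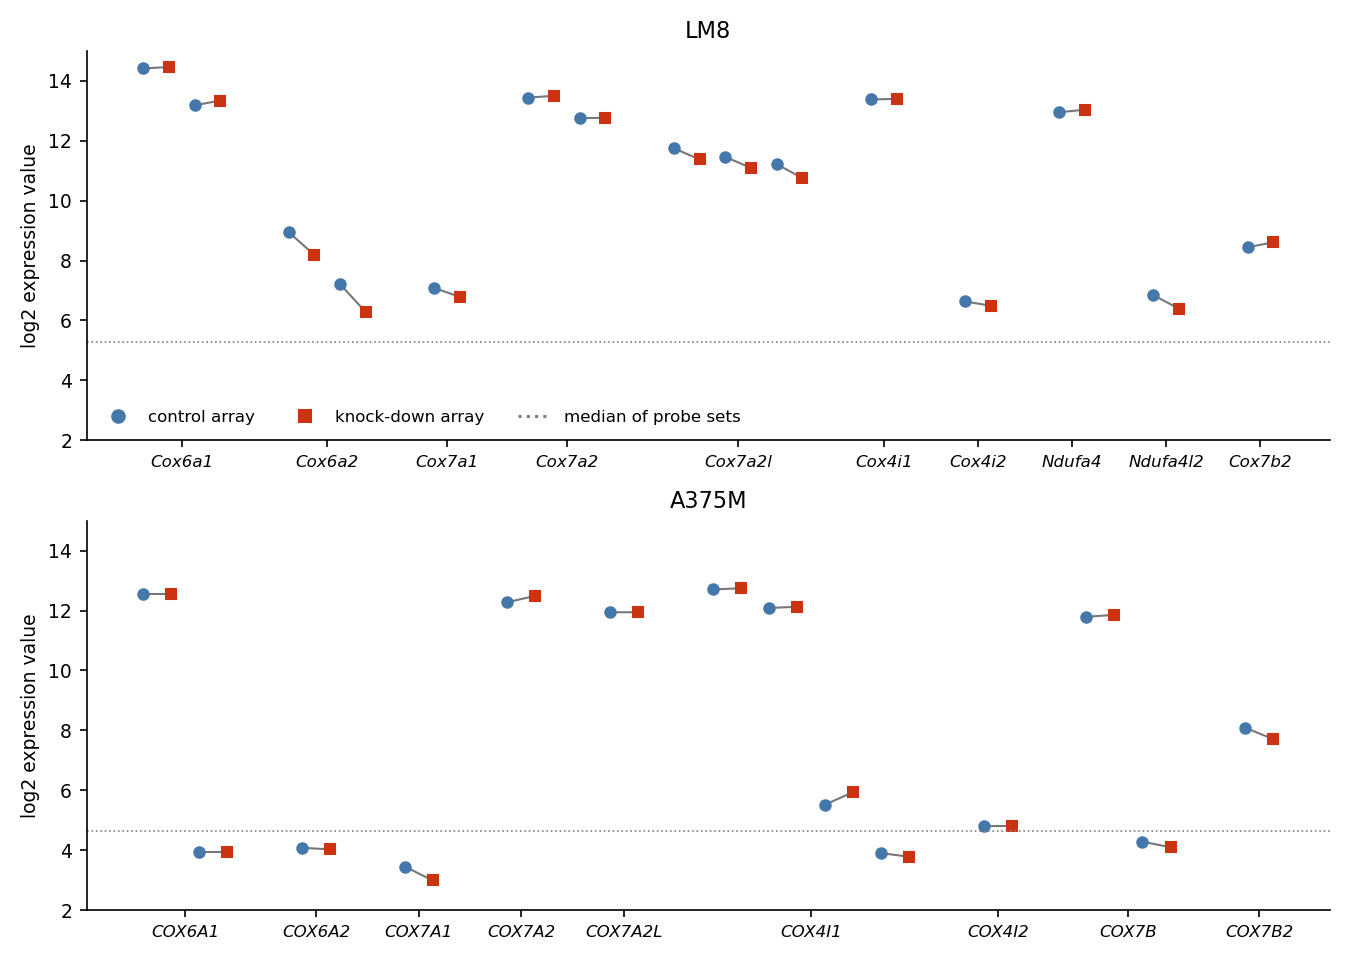
Log2 expression values in the control array (circles) and the knock-down array (squares) of each probe set of isoform genes in LM8 (top) and A375M (bottom); lines join the arrays and the dotted line is the median of probe sets. The probe sets of Cox6a2, Cox7a1, Cox7a2l and Ndufa4l2 slope down in LM8 (differences of -0.94 to -0.30), and those of COX7A1 and COX7B2 in A375M (-0.46 and -0.38). Levels of different genes cannot be compared, since each probe set has its own affinity.

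On their main probe sets the genes of complex V differed little in either line. In LM8 10 of 17 genes (58.8%) were higher and 7 lower, where 53.4% of all genes were higher. The median was 0.019 and the range from -0.054 to 0.17, so that none reached 1.2-fold on its main probe set. In A375M 12 of 19 were higher, 5 lower and 2 identical, with a median of 0.026 and a range from -0.079 to 0.22, where 28.7% of all genes were higher. Some dimmer probe sets above the array median were beyond 1.2-fold, namely of Atp5g2 (-0.38) and Atp5j2 (-0.37) in LM8 and of ATP5PO (0.30) in A375M. The catalytic genes of the F1 head hardly differed. Atp5a1, the alpha subunit, read 13.05 and 13.04 in LM8 and ATP5F1A 13.16 and 13.19 in A375M, and Atp5b, the beta subunit, read 13.67 and 13.66 and ATP5F1B 12.71 and 12.74.

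The c-ring, which turns as protons pass, is built from 3 genes that encode the same mature protein. Atp5g1 was higher by 0.096 in LM8, while Atp5g2 and Atp5g3 differed by -0.038 and -0.054 on their main probe sets. ATP5MC1 read 10.07 and 10.29 in A375M, a difference of 0.22 and the highest of the complex, while ATP5MC2 and ATP5MC3 differed by 0.016 and 0.041. The first of these genes was thus the highest of the 3 in both lines. Atp5k, the small e subunit that helps the synthase form dimers, was the highest of the complex in LM8. Its 3 probe sets read 12.60 and 12.78, 12.57 and 12.77, and 12.20 and 12.39, differences of 0.17 to 0.20. In A375M the probe sets of ATP5ME gave -0.076 and 0. ATP5F1C, the gamma subunit of the rotor, was the lowest gene of the complex there, and its 4 bright probe sets differed by -0.14 to -0.046. ATP5IF1, which blocks the synthase from running backward, was higher by 0.089 on its main probe set and by 0.11 and 0 on the others.

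Between the lines 72 genes could be set side by side. Of these, 30 were higher in the knock-down arrays of both lines, where 15.2% of 14043 genes were, which is 41.7% of the 72. Within the lines 69.1% (LM8) and 63.0% (A375M) of the 81 genes were higher, against 53.4% and 28.7% of all genes. A joint share depends on these shares, so it is no separate sign that the lines agree gene by gene. Whether it went beyond them was not tested. Another 5 of the 72 were lower in both (17% of all genes were), 24 went in opposite directions (32.4% of all genes did) and 13 were identical in at least 1 line (35.4% of all genes were). Among the genes higher in both with the highest means were Cox7c (0.25 in LM8 and 0.074 in A375M), Atp5g1 (0.096 and 0.22) and Cox7a2 (0.062 and 0.21). The LM8 value of Cox7c comes from a shared probe set at 6.34 and 6.60, and without it the gene differed by -0.13. Those lower in both were COX6A2, COX7A1, NDUFS1, UQCRC1 and ATP5MG, and only COX7A1 among the 72 was beyond 1.2-fold in the same direction in both. In A375M COX7A1 lay below the array median, and with 32 added to the linear values it was under 1.2-fold in both lines.

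A limma fit of the mean of both differences, which treats the lines of both species as a pair of replicates and pairs the arrays by line, called 0 of 14043 genes at an adjusted p under 0.05 (0% of genes), and 408 had an unadjusted p under 0.05 (2.91% of genes). Among the 72 genes 1 had an unadjusted p under that limit, COX7A1, with a mean difference of -0.38 ± 0.092 (SE) and a Benjamini-Hochberg adjusted p of 0.976 in limma. The target gene itself, lower by a mean of -2.22, had an adjusted p of 0.090 in this limma fit, which has 1 residual degree of freedom per gene.

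**Figure D4:**
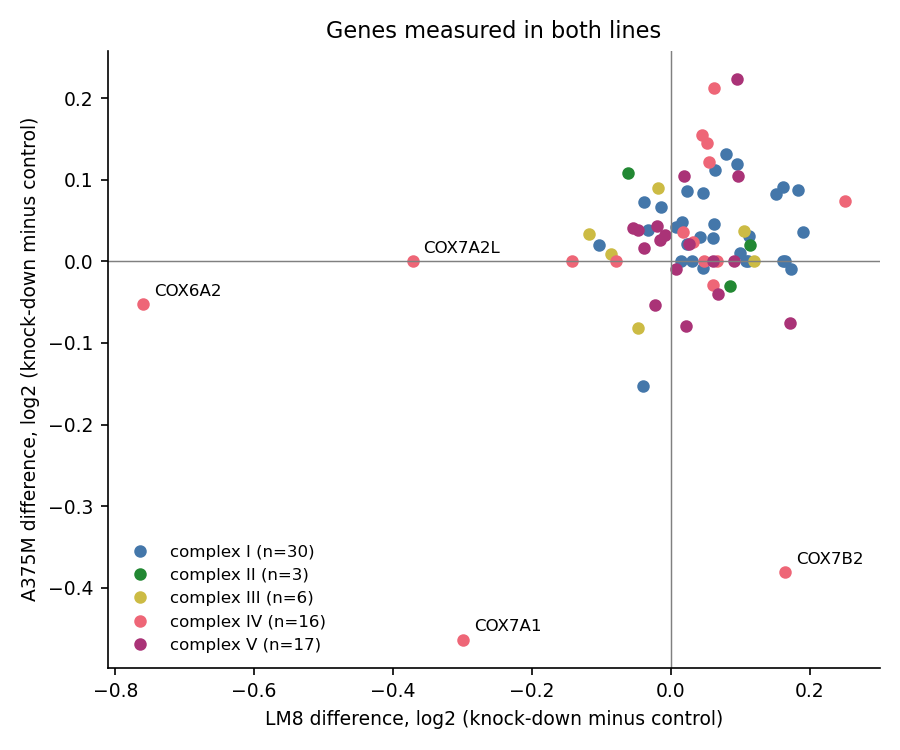
Difference in A375M against difference in LM8 (log2, knock-down minus control) for the 72 oxidative phosphorylation genes measured in both lines, coloured by complex, with genes beyond 1.2-fold in either line named by the human symbol. Ndufa4l2 was found in 1 line only and is not drawn. Of the points 30 lie above 0 on both axes, COX7A1 (below the array median in A375M) is low in both lines, and COX7B2 lies in opposite directions.

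Lists of genes that act beside the complexes had no common direction, and their differences from the subunit genes were not tested. Of all genes 53.4% were higher and 46% lower in LM8. In A375M 28.7% of all genes were higher, 31.9% lower and 39.4% identical. No symbol of the 13 mitochondrially encoded subunits was found on either array. Of 8 electron carriers and subunits outside the symbol rule, among them Cycs (cytochrome c) and Cyc1, 2 were higher and 6 lower in LM8 (median -0.026), and 2 were higher, 4 lower and 2 identical in A375M (median -0.0046). Complex I assembly factors were higher for 9 of 14 in LM8 (median 0.011). In A375M 4 of 14 were higher, 7 lower and 3 identical (median -0.0037). Assembly factors of complex IV had medians of 0.013 over 20 genes and 0.0035 over 24, and those of complexes II, III and V -0.0038 over 13 and 0.016 over 13. Mitochondrial ribosomal protein genes, whose products translate the mitochondrially encoded subunits, were higher for 36 of 76 in LM8 (median -0.0062) and for 29 of 77 in A375M (median 0).

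Tricarboxylic acid cycle genes were higher for 9 of 13 in LM8 (median 0.052), or 69.2% against 53.4% of all genes. In A375M 3 of 12 were higher, 7 lower and 2 identical (median -0.0070). The share of higher genes there, 25%, was near the 28.7% of all genes. MDH2, the mitochondrial malate dehydrogenase, read 12.55 and 12.80 in A375M, a difference of 0.26. Among regulators and mitochondrial DNA expression factors 7 of 16 were higher in LM8 (median -0.047) and 4 of 16 in A375M (median 0). Nrf1 differed by 0.056 in LM8 and read the same in both A375M arrays. The GABP genes Gabpa and Gabpb1 differed by -0.095 and -0.16 in LM8. In A375M GABPA read the same in both arrays and GABPB1 differed by -0.18. Yy1 differed by -0.24 in LM8 and YY1 by -0.10 in A375M. PPARGC1A, which encodes the coactivator PGC-1α, read 5.44 and 5.81 in A375M, a difference of 0.37, while Ppargc1a was below the array median in LM8 and differed by -0.035. TFB1M, a mitochondrial ribosomal RNA methyltransferase gene, read 10.40 and 10.14 in A375M, a difference of -0.26, and differed by -0.12 in LM8.

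**Figure D5:**
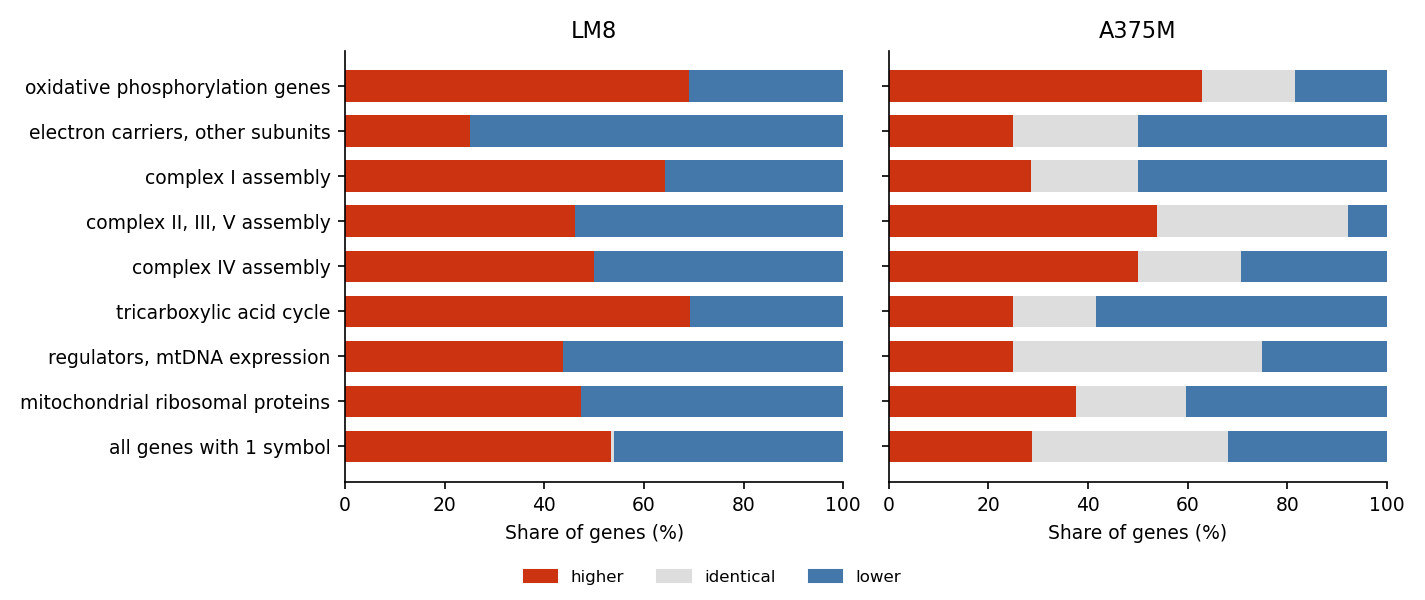
Share of genes (%) that were higher, identical or lower in the knock-down array, for oxidative phosphorylation genes, related mitochondrial lists and all genes, in LM8 and A375M. The share of higher genes was 69.1% in LM8 and 63.0% in A375M for oxidative phosphorylation genes, against 53.4% and 28.7% of all genes.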

How the data were processed

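Total RNA was labelled as biotinylated cRNA and hybridised to Affymetrix arrays, per the labels' protocols. The authors deposited 1 log2 expression value for each probe set. The submitters' processing notes name RMA and no version. Whether the arrays of a line were normalized together is not stated. Probe sets were named by the platform annotation; those with several symbols matching the rule (9 in mouse, 15 in human) were left out. Among the probe sets naming 1 gene alone, the one with the highest mean stood for it, with no filter on level. 79 of 81 mouse and 74 of 81 human genes lay above the 50th percentile of probe sets by that mean. Mouse complex V symbols were paired with human ones by hand, and other genes by symbol or RefSeq synonym (GRCm38.p6).

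Differences were counted at 1.2-fold, with 1.1-fold, 1.5-fold and 2-fold as alternatives; the other alternatives changed scaling, offset (32), loess (span 0.4, statsmodels 0.14.6), filter and probe set. The fit over both lines used limma 3.58.1 in R 4.3.3. Scripts were tested on simulated data. Named were the highest and lowest gene of each complex, genes with a probe set beyond 1.5-fold, genes beyond 1.2-fold alike in both lines, and isoform families; other genes named, with their values, were chosen after these were seen. Members and lists were chosen with earlier results of these data known.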

Additional observations from a re-analysis of the deposited data

Results flagged for a closer look

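Cox7b2, the testis isoform gene of subunit VIIb, was higher by 0.16 in the LM8 knock-down array and COX7B2 lower in A375M, at -0.38, so that the lines went in opposite directions with at least 1.1-fold on both sides. The median of complex III was -0.033 in LM8 and 0.021 in A375M; with the arrays centred both were below 0, at -0.021 and -0.0087, and without shared probe sets the A375M median was 0. Neither difference between lines was tested, since each line has 1 array a group.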

How the results depend on the processing

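With 1 array a group no replicate could be left out, and no replicate numbers pair the arrays other than the line itself. In LM8 the median and the counts of higher and lower genes kept their direction under the 11 alternatives run. The 4 LM8 genes at least 1.2-fold lower became 2 above the 70th percentile of level, 1 at 1.5-fold, 0 at 2-fold and 0 without tissue-restricted isoforms and symbols naming no subunit. The last setting leaves out, by its definition, every LM8 and A375M gene that was beyond 1.2-fold, Ndufa4l2 included. The 0 LM8 genes at least 1.2-fold higher became 12 at 1.1-fold and 1, Cox7c, after repeated quantile normalization. In A375M centring moved the median to -0.0016 and the lower genes to 41, and leaving out shared probe sets moved the median to 0 and the higher genes to 29, with 3 genes at least 1.2-fold higher (COX4I1 and NDUFB7, each on a dimmer probe set, and NDUFV1-DT). The single A375M gene beyond 1.2-fold higher became 7 at 1.1-fold, and 0 at 1.5-fold, at 2-fold, with 32 added, with subunits only and without isoforms. The 2 lower ones became 1 above the 50th or the 70th percentile and with 32 added, and 0 at 1.5-fold, at 2-fold and without isoforms. Of the medians by complex, averaging probe sets turned complex II in LM8 to -0.015, and centring turned those of A375M to -0.011 (II), -0.0087 (III), -0.030 (IV) and -0.0044 (V). Averaging probe sets also turned Sdha (-0.062) and Cox8a (-0.022) in LM8, and COX7B (-0.061) and SDHC (0.036) in A375M, and leaving out shared probe sets turned Cox7c (-0.13) and SDHC (0.048). Over both lines, genes lower in both became 12 after centring and 8 when all probe sets of a gene were averaged, and without shared probe sets 16 were higher in both and 14 opposite. The limma fit called 2 genes after centring (BUD23 and PLAGL1) and 1 after quantile normalization (BUD23), none of them of oxidative phosphorylation, whose lowest adjusted p ranged from 0.948 to 0.99975 over the settings. Leaving out isoforms or identical values was chosen after the data were seen. For changes other than those made by fewer genes or another threshold the cause was not tested.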
